A study of Mus musculus with 8 samples.

Results

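Organoids that had formed after 6 days of culture were compared with the freshly sorted liver duct cells from which such cultures start, across 12900 genes. The comparison used 4 of the 8 libraries of the study, chosen by their labels: 2 of organoids (replicates 1 and 2) and 2 of fresh cells (replicates 1 and 2). The source of all cells was the healthy liver of adult male mice of the strain C57/B6, and sorting selected EpCAM, an adhesion protein on the surface of bile duct epithelium. The organoid cells were held in Matrigel, a basement membrane gel, with organoid medium for 6 days, and the fresh cells were taken at 0 h, straight after sorting. The labels do not state whether replicates are separate animals or wells, so the p-values rest on a spread that may be technical. Values of a gene are given for replicate 1 and then replicate 2 of each group. The other 4 libraries, of cells cultured for 12 h (2), 24 h (1) and a library titled 48h (1), entered the fit and the filter on low values. Of these only the 12 h pair adds to the estimate of the spread between replicates, since the others stand alone in their groups.

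Bile ducts are lined by cholangiocytes, epithelial cells that modify bile by moving ions and water and that seldom divide in a healthy liver. Under injury, or in a gel with growth factors, some of them enter the cell cycle and form hollow cysts that can be passaged, and mouse liver organoids of this kind are known for Lgr5, a Wnt pathway receptor of stem cells. Dissociating and sorting a solid tissue is known to be able to switch on stress genes within hours.

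Expression was given as RPKM, a read count scaled to gene length and to sequencing depth. Its levels compare across libraries only as far as the libraries are alike in composition. The values stood for 13833143 and 20218320 effective reads in the organoid libraries and 15254573 and 28468920 in the fresh ones, so that 3 reads in a gene of 2 kb would be between 0.0527 and 0.108 RPKM. At 1 RPKM or more were 10877 and 11098 genes in organoids and 10926 and 10727 in fresh cells. Organoid replicate 1 stood apart in composition. Its summed RPKM was 446034, against 359128 in organoid replicate 2 and 369701 and 357129 in fresh cells. Ribosomal protein genes made up 5.49% of its summed RPKM and 2.16% in organoid replicate 2, against 1.01% and 1.15% in fresh cells. The mean gene length weighted by RPKM was 2612 bp in organoid replicate 1 and 3219 bp in replicate 2, against 3069 and 3186 bp in fresh cells. Mitochondrial genes made up 3.92% and 4.93% in organoids and 7.21% and 5.52% in fresh cells. Of the 1302 genes that averaged 50 RPKM or more across the 8 libraries, 12 and 7 had less than 1 RPKM in the organoid libraries and 2 and 0 in the fresh ones. A value of 0 is therefore given below only as a gene listed at 0.

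Cholangiocyte markers were present in both groups. Epcam, on whose protein the cells were sorted, was at 900.2 and 954 RPKM in organoids and 1058 and 1144 RPKM in fresh cells. The 10 cholangiocyte markers examined summed to 14449 and 9317 RPKM in organoids and 18072 and 21024 RPKM in fresh cells, most of it Spp1, the secreted protein osteopontin. Hepatocyte markers (10 genes) summed to 16.3 and 50.6 RPKM in organoids and 1049 and 1068 RPKM in fresh cells, and Apoa1, Serpina1c, Cps1, Cyp2e1 and Tat were listed at 0 in both organoid libraries. The fresh libraries thus held RNA of some hepatocyte genes beside that of duct genes. Cps1, at 1.01 and 0.563 RPKM, and Tat, at 0.981 and 1.64 RPKM, were low in fresh cells too and were not tested.

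Of 12900 genes tested by limma on log2(RPKM + 1), 1301 (10.1%) differed at a Benjamini-Hochberg adjusted p under 0.05. These were 664 (5.15%) higher and 637 (4.94%) lower in organoids than in fresh cells. The counts of each gene list below are to be read beside these shares. Each of the 1301 had both organoid libraries on the same side of both fresh libraries and a fitted log2 change of at least 1.05 in size, and 64.7% of all genes tested were free of overlap in the same way. Over 16-fold on the fitted scale were 41 genes higher and 86 lower, and 110 of the lower genes were listed at 0 in both organoid libraries, while 13 of the higher ones were listed at 0 in both fresh libraries. On log2(RPKM + 1) a fall cannot exceed the level in fresh cells. The scale itself thus places the largest falls among genes of high RPKM in fresh cells. In bulk RNA, fewer cells of a type and less RNA per cell cannot be told apart.

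The balance of higher and lower calls moved with filter and scaling. Higher calls were 51.0% of the total as reported, 62.0% (707 higher, 433 lower) among genes that averaged 5 RPKM or more, 39.9% (548 higher, 825 lower) after centring of the libraries on their medians and 35.4% (262 higher, 478 lower) with no filter on low values. The median log2 change of all genes tested was 0.17, and 0.03 after centring, so a change of that size is no change relative to the typical gene. Libraries mattered more than scaling. Without fresh replicate 1 or fresh replicate 2 no gene passed by limma (2163 and 1847 at an unadjusted p under 0.05), so every count of called genes given below becomes 0 when a fresh library is removed. Without organoid replicate 1 the number was 117 (62 higher, 55 lower), and without organoid replicate 2 it was 1418 (729 higher, 689 lower), of which 804 were among the 1301. Where a list's counts with an organoid library left out are given as a pair, the first is without organoid replicate 1 and the next without organoid replicate 2. Where none of a list was called in 1 direction, at most 1 gene had an unadjusted p under 0.05 by limma in that direction, with exceptions of 3 lower Wnt genes, 4 lower cholesterol genes, 7 lower ribosome biogenesis genes, 5 lower gut genes and 4 higher antimicrobial genes, besides hypoxia, oxidative phosphorylation and the markers of other cell types described below.

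**Figure D1:**
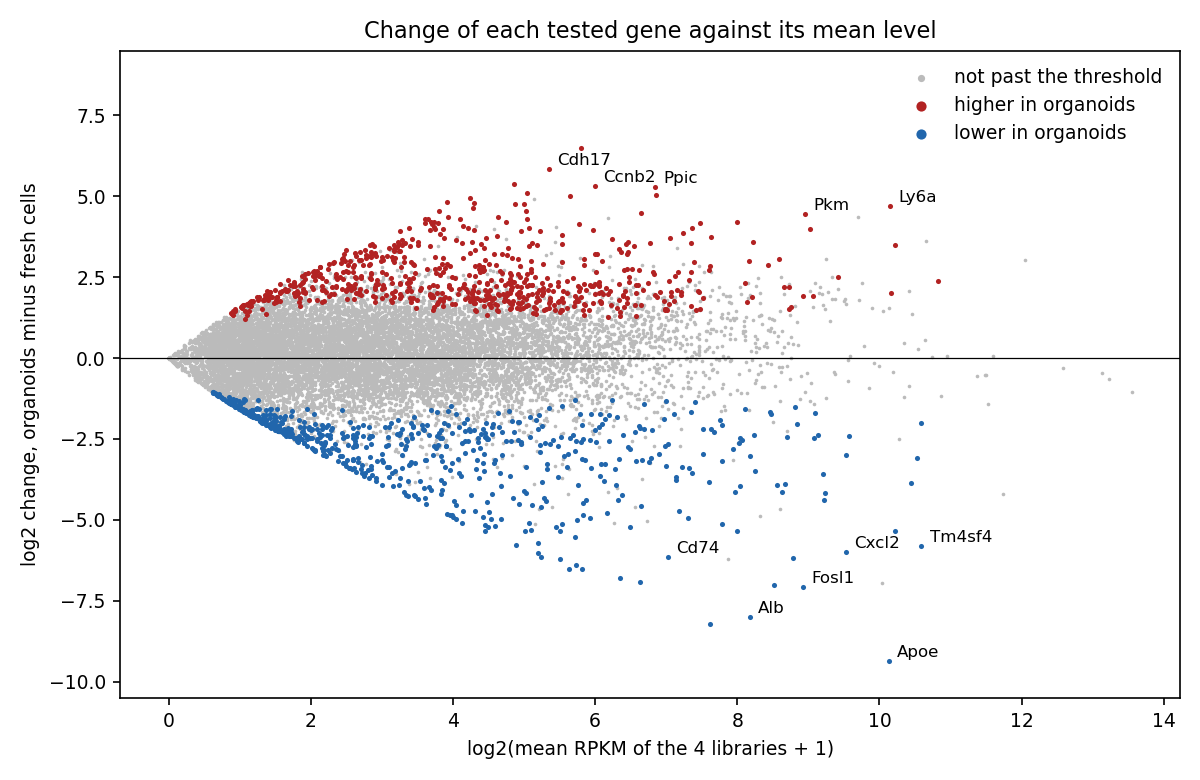
Each point is 1 of 12900 genes, with the log2 change (organoids minus fresh cells, on log2(RPKM + 1)) on the y axis and the log2 of the mean RPKM of the 4 libraries plus 1 on the x axis. Red points are the 664 genes higher and blue points the 637 genes lower in organoids. Apoe at −9.36 and Alb at −8.01 lie lowest among the labelled genes, and Cdh17 at 5.83 lies highest.

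Among the 15 largest increases of genes that averaged 5 RPKM or more, 7 are cell cycle genes, and the others belong to no single function. Cdh17, a cadherin of intestinal epithelium, was at 29.7 and 129 RPKM in organoids, against 0.161 and 0.0628 RPKM in the fresh libraries (log2 change 5.83, SE 0.69, adjusted p = 0.0104). The organoid libraries lay far above the fresh ones but 4.35-fold apart from each other. Rab38, a small GTPase of vesicle transport to pigment granules and related organelles, was at 26.9 and 29.6 RPKM in the organoid libraries and 0.0416 and 0.0223 RPKM in the fresh ones (log2 change 4.82, SE 0.39, adjusted p = 0.00573). Gmpr, which turns guanosine monophosphate back into inosine monophosphate, was at 44.6 and 26.7 RPKM in the organoid libraries, against 0.350 and 0 RPKM in fresh cells. Slfn2, a member of the Schlafen family known from T cell quiescence, was at 146 and 47.4 RPKM in organoids and 2.44 and 1.01 RPKM in fresh cells. In each of these genes both organoid values lay far above both fresh ones. Ly6a, the surface protein Sca-1 of many progenitor cells, was the most abundant of the 15, at 3259 and 1106 RPKM in organoids, against 101 and 51.4 RPKM in the fresh libraries (log2 change 4.70, SE 0.65, adjusted p = 0.0133). It has close relatives in the Ly6 family, and the sources used here do not say how the authors' counting shared reads among them. The largest fitted increase of all, chosen after its value was seen, was that of 4930461G14Rik, a long noncoding RNA gene at chromosome 9:58455122-58469635, with 169 and 50.4 RPKM in the organoid libraries and 0 and 0.0901 RPKM in the fresh ones.

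Ctla2a, a cathepsin inhibitor whose near copy Ctla2b makes its read assignment uncertain, was at 32.96 and 90.1 RPKM in the organoid libraries, against 2.82 and 0.486 RPKM in fresh cells (log2 change 4.55, SE 0.72, adjusted p = 0.0180). Cdkn3, a phosphatase that removes an activating phosphate from CDKs, was at 66.02 and 45.4 RPKM in organoids and 0 and 0.818 RPKM in fresh cells (log2 change 5.37, SE 0.50, adjusted p = 0.00664). Igfbp4 and Ppic are taken up with their gene groups below.

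Genes of hepatocytes made up most of the 15 largest decreases. Apoe, a lipid transport protein of the liver, was at 0.744 and 5.53 RPKM in organoids, against 1960.1 and 2515 RPKM in the fresh libraries (log2 change −9.36, SE 0.61, adjusted p = 0.00482). Both organoid values were below 10 RPKM and far under both fresh values. Vtn, the plasma adhesion protein vitronectin, was at 0.0356 and 0.0731 RPKM in the organoid libraries and 85.5 and 108 RPKM in the fresh ones (log2 change −6.53, SE 0.96, adjusted p = 0.0156), and its organoid values were under the level of 3 reads in a gene of 2 kb. Aadac, a liver esterase of the endoplasmic reticulum, was at 0 and 0.527 RPKM in the organoid libraries, against 95.9 and 111 RPKM in fresh cells. Ces1d, Alb, Fosl1, Apoc1, H2-Q6, Mup3, Ambp, Cd74 and Apoa1 were also among the 15. Ces1d, H2-Q6 and Mup3 belong to families of near-identical genes, so their read assignment is uncertain. On GRCm38, Cdh17 lies at chromosome 4:11758147-11817895, Rab38 at chromosome 7:88430273-88491572, Ly6a at chromosome 15:74994877-74998031, Apoe at chromosome 7:19696109-19699188 and Vtn at chromosome 11:78499091-78502324, all annotated as protein-coding genes.

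The clearest gain in organoids was the machinery of cell division. Of 35 genes of the mitotic spindle and kinetochore, 30 rose and none fell by limma, with a median log2 change of 3.20, against 5.15% of all genes called higher and a median of 0.17. The count was 9 without organoid replicate 1 and 22 without organoid replicate 2. Cdk1, the mitotic kinase, was at 48.2 and 73.1 RPKM in organoids and 1.16 and 1.27 RPKM in fresh cells (log2 change 4.77, SE 0.42, adjusted p = 0.00619). Its cyclin partner Ccnb2 was at 109 and 137 RPKM in organoids, against 0.766 and 4.35 RPKM in the fresh libraries (log2 change 5.32, SE 0.80, adjusted p = 0.0159). Plk1, a kinase of spindle assembly and mitotic exit, was at 15.4 and 59 RPKM in the organoid libraries and 0.0596 and 0.224 RPKM in the fresh ones (log2 change 4.78, SE 0.66, adjusted p = 0.0135). In each of the 3 genes the lower organoid library was above the higher fresh library by more than 10-fold, and organoid replicate 2 was the higher of the organoid pair.

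The increase covered kinases, kinetochore proteins and the exit machinery. The cyclin Ccna2 was at 27.7 and 45.2 RPKM in organoids and 0.433 and 0.482 RPKM in fresh cells. The chromosome passenger kinase Aurkb was at 14.9 and 29.2 RPKM in the organoid libraries, against 0.178 and 0.238 RPKM in fresh cells. The spindle pole kinase Aurka was at 20.3 and 44.5 RPKM in organoids and 1.01 and 0.666 RPKM in fresh cells. In these 3 kinases and cyclins organoid replicate 2 was again the higher of the organoid pair. Of the kinetochore, Cenpa, the histone that marks centromeres, reached 30.3 and 18.1 RPKM in organoids, against 0.425 and 0.551 RPKM in fresh cells. Ndc80, which binds microtubule ends, was at 9.26 and 15.6 RPKM in organoids, against 0.0298 and 0.255 RPKM in the fresh libraries. Ube2c, the ubiquitin carrier of the anaphase-promoting complex, was at 35.1 and 76.6 RPKM in organoids and 0.731 and 1.19 RPKM in fresh cells. Mki67, the proliferation antigen Ki-67, was close within each group, at 5.76 and 6.26 RPKM in the organoid libraries and 0.319 and 0.321 RPKM in the fresh ones (log2 change 2.41, SE 0.39, adjusted p = 0.0181). The 5 members that did not pass were Kif23, Prc1, Incenp, Foxm1 and Mybl2, all with both organoid values above both fresh ones. Of all genes tested 64.7% were free of overlap between the groups. Foxm1, a transcription factor of G2 and M phase genes, was at 2.50 and 9.67 RPKM in the organoid libraries, against 0.137 and 0.470 RPKM in fresh cells (adjusted p = 0.0581 by limma).

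Promoters of these genes are known for a CCAAT box, bound by NF-Y, and for the cell cycle homology region (CHR), bound by the DREAM and MuvB complexes, which give expression late in the cell cycle. The RefSeq windows on GRCm38.p6, from 250 bases before to 50 bases after the start, are shown for Cdk1 (chr10:69352863-69353162, minus strand), Ccnb2 (chr9:70421505-70421804, minus strand) and Plk1 (chr7:122159185-122159484, plus strand), because these 3 are among the largest increases. Capitals mark CCAAT (or ATTGG on the other strand) and TTTGAA (or TTCAAA), the CHR letters.
Cdk1: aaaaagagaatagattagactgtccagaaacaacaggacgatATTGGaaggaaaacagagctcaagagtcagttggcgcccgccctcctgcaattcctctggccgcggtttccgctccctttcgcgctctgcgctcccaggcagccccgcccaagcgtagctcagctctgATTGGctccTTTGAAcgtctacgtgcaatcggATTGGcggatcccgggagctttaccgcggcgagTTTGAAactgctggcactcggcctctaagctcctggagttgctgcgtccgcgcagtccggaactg
Ccnb2: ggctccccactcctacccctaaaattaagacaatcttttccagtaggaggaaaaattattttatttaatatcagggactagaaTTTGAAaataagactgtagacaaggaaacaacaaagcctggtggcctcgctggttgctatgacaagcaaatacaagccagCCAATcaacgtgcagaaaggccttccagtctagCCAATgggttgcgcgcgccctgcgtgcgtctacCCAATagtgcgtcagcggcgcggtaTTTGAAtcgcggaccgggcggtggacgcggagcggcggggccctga
Plk1: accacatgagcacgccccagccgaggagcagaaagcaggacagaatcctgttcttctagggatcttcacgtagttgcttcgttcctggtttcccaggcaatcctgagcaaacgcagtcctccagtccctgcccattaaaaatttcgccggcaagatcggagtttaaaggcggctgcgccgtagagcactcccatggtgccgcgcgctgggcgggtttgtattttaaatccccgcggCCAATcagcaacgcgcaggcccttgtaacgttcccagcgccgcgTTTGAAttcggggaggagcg
Of the 30 mitotic genes that rose, 26 had a window in the table, and CCAAT stood on either strand in 20 (76.9%), TTTGAA in 19 (73.1%) and both in 17 (65.4%). Among the 9369 tested genes with a window the shares were 43%, 14% and 5.81%, and over all 27025 genes with a RefSeq window 41.1%, 20.2% and 7.97%. Over all 498 higher genes with a window they were 51.4%, 19.9% and 10.4%. These are matches of letters and say nothing of binding, and CCAAT and TTTGAA can share at most 1 end base. The list is made of known mitotic genes, so its shares describe the list and not these libraries.

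Genes of DNA replication moved less as a group. Of 30 tested, 10 rose and none fell, with a median log2 change of 2.002, and the count was 1 without organoid replicate 1 and 4 without organoid replicate 2. Those that rose make nucleotides (Rrm2, Dut, Dctd, Tyms, Tk1) or belong to the fork (Gins1, Gins2, Prim1, Rfc4), together with geminin. Gmnn, geminin, which blocks renewed licensing of origins, was at 79.99 and 45.6 RPKM in organoids and 0.492 and 1.10 RPKM in fresh cells (log2 change 5.12, SE 0.64, adjusted p = 0.0117). Rrm2, the regulated subunit of ribonucleotide reductase, was at 37.9 and 54.8 RPKM in organoids, against 0.852 and 1.80 RPKM in the fresh libraries (log2 change 4.36, SE 0.62, adjusted p = 0.0142). Dut, which keeps uracil out of DNA, was at 43.3 and 54.5 RPKM in the organoid libraries and 3.29 and 4.21 RPKM in the fresh ones (log2 change 3.39, SE 0.35, adjusted p = 0.00810). In all 3 genes both organoid values lay far above both fresh ones. The 6 subunits of the MCM helicase did not pass, but they differed in organoid replicate 1. Mcm5 was at 13.96 and 45.9 RPKM in organoids, against 3.29 and 4.43 RPKM in fresh cells (adjusted p = 0.0548 by limma). Mcm3 was at 10.9 and 42 RPKM in organoids, against 3.98 and 5.31 RPKM in fresh cells. For Mcm2 the values were 6.78 and 25.4 RPKM, against 2.38 and 3.55 RPKM. Mcm7 lay nearer the fresh level, at 16.02 and 31.8 RPKM, against 11.6 and 12.7 RPKM. Mcm4 was at 8.76 and 51.04 RPKM in the organoid libraries, against 6.50 and 6.19 RPKM in fresh cells, with organoid replicate 1 near the fresh level. Mcm6 was at 24.4 and 64.7 RPKM in organoids and 20.3 and 24.5 RPKM in fresh cells. Pcna, the sliding clamp, was at 13.6 and 28.4 RPKM in organoids, against 16.4 and 18.95 RPKM in the fresh libraries, so that organoid replicate 1 lay below both fresh libraries. None of the 7 windows of the higher replication genes held the E2F letters TTTCGCGC, TTTGGCGC or TTTCCCGC, which 4.13% of the tested genes' windows held. At so low a share, 7 windows are too few for a lack of matches to mean anything.

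Some regulators of the G1 phase rose. Of 18 tested, 3 rose and 1 fell (median log2 change 1.56). With an organoid library left out these were 2 and 1 higher and 0 and 0 lower, and 1 of 18 is near the 4.94% of all genes called lower. Cdk4, the kinase of cyclin D, was at 194 and 280 RPKM in the organoid libraries and 38.5 and 39.9 RPKM in the fresh ones (log2 change 2.54, SE 0.33, adjusted p = 0.0119), with organoid values at least 4-fold above the fresh ones. Its partner Ccnd3 rose to 8.38 and 10.3 RPKM in organoids, against 1.61 and 1.75 RPKM in fresh cells. The more abundant Ccnd1 was at 76.9 and 199.7 RPKM in the organoid libraries, against 52.3 and 51.9 RPKM in fresh cells (adjusted p = 0.144). Cdkn2b, an inhibitor of Cdk4, rose as well, to 93.2 and 141 RPKM in organoids, against 11.01 and 11.95 RPKM in fresh cells (log2 change 3.21, SE 0.51, adjusted p = 0.0180). Cdkn1a, the inhibitor p21, fell to 166 and 161 RPKM in organoids, against 423 and 648 RPKM in fresh cells (log2 change −1.67, SE 0.37, adjusted p = 0.0401). Cdkn2a, the locus of p16 and p19, was at 0.678 and 6.03 RPKM in organoids and 0 and 0.0899 RPKM in fresh cells (adjusted p = 0.132), with most of its signal in organoid replicate 2. Cdkn2b lies at chromosome 4:89306299-89311039 and Cdkn1a at chromosome 17:29090976-29100727 on GRCm38.

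**Figure D2:**
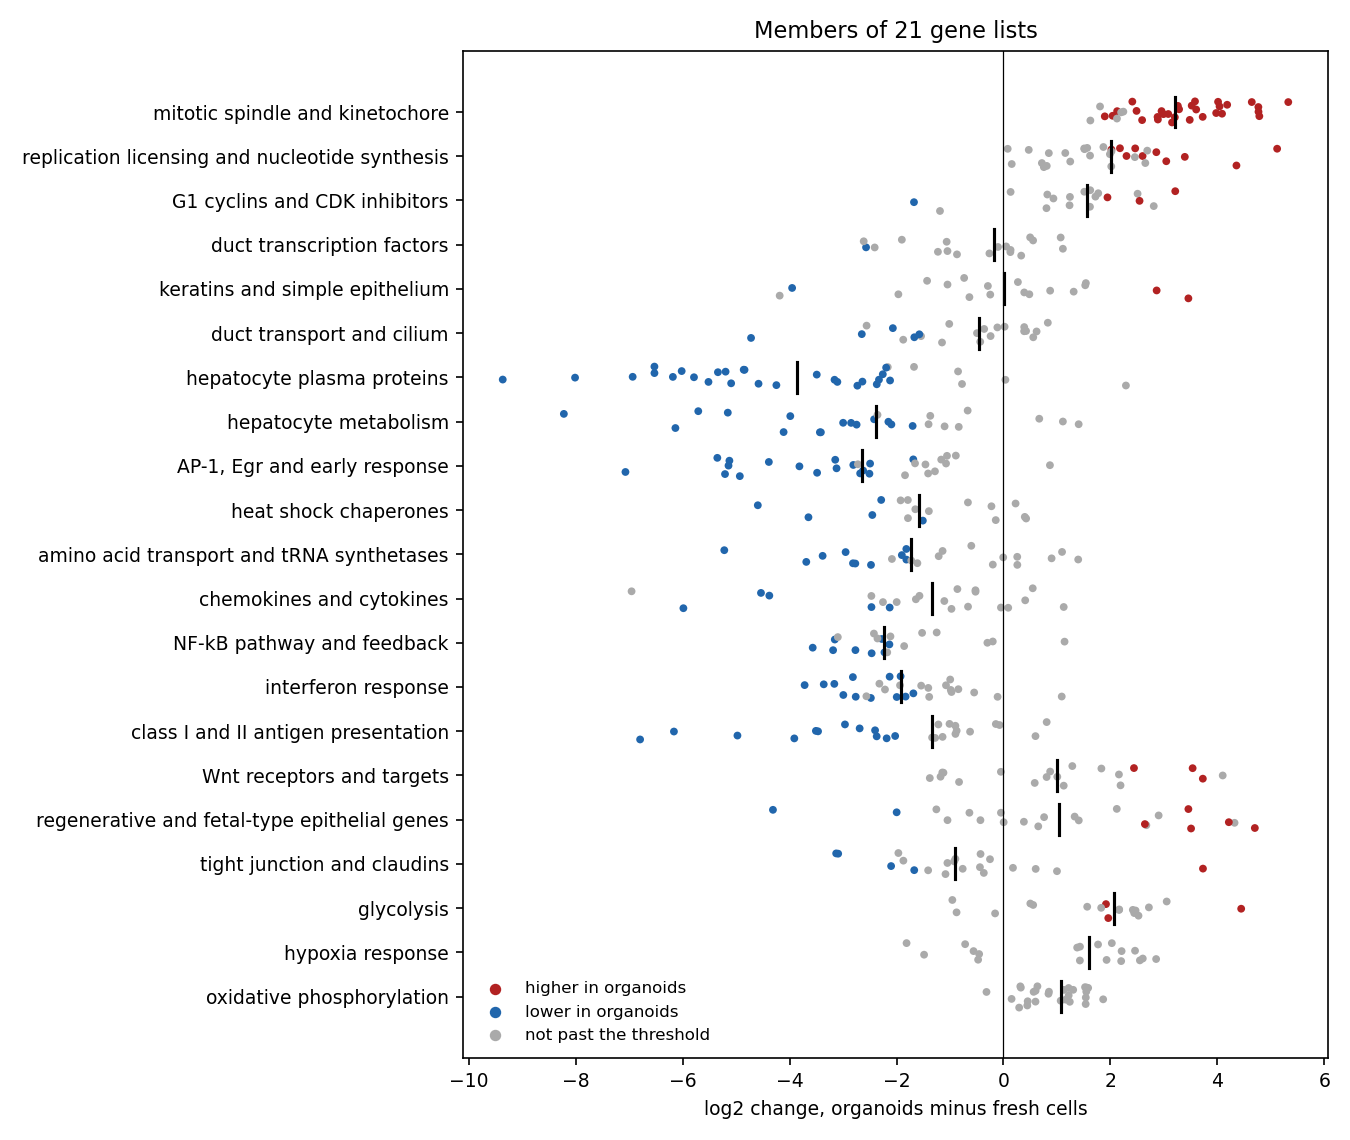
Each point is a tested gene of 1 of 21 gene lists, placed by its log2 change (organoids minus fresh cells, x axis), with a black bar at the median of the list. Red points rose and blue points fell by limma at an adjusted p under 0.05, and grey points did not pass. The mitotic list has its median at 3.20 and hepatocyte plasma proteins at −3.87.

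Keratins and transcription factors of duct and liver gave few calls, where 5.15% of all genes tested rose and 4.94% fell. Krt19 was at 1919.8 and 1326 RPKM in organoids, against 1649.7 and 1062 RPKM in the fresh libraries (log2 change 0.27, SE 0.71, adjusted p = 0.832), and the groups overlapped. Krt18 was at 6632 and 4479 RPKM in the organoid libraries and 6707 and 6639.9 RPKM in the fresh ones. Krt8 was at 1199.7 and 2059 RPKM in the organoid libraries, against 3898 and 4595 RPKM in fresh cells (adjusted p = 0.0895). The abundant keratins thus kept high values in all 4 libraries. Krt7, another keratin of simple duct epithelium, rose to 809.8 and 409 RPKM in organoids, against 103 and 59.5 RPKM in fresh cells (log2 change 2.86, SE 0.50, adjusted p = 0.0225). Krt23 fell to 21.4 and 43.5 RPKM in organoids, against 541 and 439.8 RPKM in fresh cells (log2 change −3.95, SE 0.78, adjusted p = 0.0294). Over the 18 keratins and epithelial genes tested, 2 rose and 1 fell (0 and 2 higher, 0 and 2 lower with an organoid library left out). The list's median was 0.01, −0.13 after centring and 0.10 after quantile normalization. Krt17, a keratin of basal and injured epithelium, was at 0.0932 and 19.9 RPKM in organoids and 74.9 and 98.6 RPKM in fresh cells. The 4 libraries of Krt17 ran from near 0 in organoid replicate 1 through an intermediate organoid replicate 2 to the fresh pair (adjusted p = 0.114).

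The list of transcription factors covers the duct but also holds factors of hepatocytes, such as Hnf4a. Of the 18 tested, Prox1 fell and none rose. Prox1, a regulator of hepatocyte and biliary fate, was at 0.0689 and 1.82 RPKM in organoids, against 9.04 and 9.59 RPKM in the fresh libraries (log2 change −2.57, SE 0.57, adjusted p = 0.0407). Sox9, the duct factor, was at 119.8 and 139.7 RPKM in the organoid libraries and 239 and 301 RPKM in the fresh ones (log2 change −1.05, SE 0.37, adjusted p = 0.117). Both organoid values of Sox9 and of Prox1 lay below both fresh ones, where 64.7% of all genes tested were free of overlap. Hnf4a, a factor of hepatocytes, was at 9.24 and 39.8 RPKM in the organoid libraries, against 61.3 and 92.5 RPKM in fresh cells (adjusted p = 0.123). Cebpa was at 1.89 and 13.98 RPKM in organoids and 26.9 and 57.2 RPKM in fresh cells (adjusted p = 0.0954), and like Hnf4a it was lowest in organoid replicate 1. The secreted proteins of the duct were the most abundant. Spp1 was at 10088 and 5841 RPKM in organoids, against 14186 and 17735 RPKM in the fresh libraries, the highest fresh level of the keratin and epithelium list, with an adjusted p of 0.298. Clu, the secreted chaperone clusterin, was at 5191 and 10285 RPKM in the organoid libraries and 11378 and 11354 RPKM in the fresh ones, and organoid replicate 2 lay close to the fresh pair.

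Transport genes of the mature duct fell in part, where 4.94% of all genes tested fell. Of 22 genes of duct transport and the cilium tested, 5 fell and none rose (median log2 change −0.47), and the count was 0 without organoid replicate 1 and 2 without organoid replicate 2. Cftr, the chloride channel that starts bile bicarbonate secretion, was at 0.186 and 0.554 RPKM in the organoid libraries, against 5.72 and 9.81 RPKM in fresh cells (log2 change −2.65, SE 0.52, adjusted p = 0.0296). Sctr, the secretin receptor that opens it, was listed at 0 in both organoid libraries, against 2.31 and 4.31 RPKM in fresh cells (log2 change −2.07, SE 0.36, adjusted p = 0.0225). Slc5a1, a sodium-glucose cotransporter, was at 0.0352 and 0.554 RPKM in organoids and 27.5 and 38.2 RPKM in fresh cells, a fall of 111-fold (log2 change −4.72, SE 0.65, adjusted p = 0.0133). Each of the 3 was below 1 RPKM in both organoid libraries. The sodium pump subunit Atp1b1 fell less, to 69.7 and 84.99 RPKM in organoids, against 258 and 235 RPKM in fresh cells. Other duct channels did not pass, with Ano1, a calcium-activated chloride channel, at 13.99 and 88.7 RPKM in organoids, against 25.1 and 20.9 RPKM in the fresh libraries. Slc12a2, the basolateral chloride importer, was at 17.9 and 29.6 RPKM in the organoid libraries and 12.1 and 12.99 RPKM in the fresh ones. Ift88, of the intraflagellar transport machinery of cilia, was at 4.72 and 8.50 RPKM in the organoid libraries, against 5.14 and 4.17 RPKM in fresh cells (adjusted p = 0.604). Thus Ano1 was high in organoid replicate 2 alone, and Ift88 differed little. Aqp1, a water channel, was at 4.05 and 2.50 RPKM in organoids and 129 and 3.73 RPKM in fresh cells, a gene in which the fresh libraries themselves differed by more than 10-fold. Cftr lies at chromosome 6:18170687-18322768, Sctr at chromosome 1:120006894-120063536 and Slc5a1 at chromosome 5:33104219-33162870.

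RNA of hepatocyte genes was far lower in organoids. Of 36 plasma protein genes 32 were tested, and 26 of these fell and none rose, with a median log2 change of −3.87, against 4.94% of all genes called lower. The count was 8 without organoid replicate 1 and 19 without organoid replicate 2. Alb, serum albumin, was at 0.0309 and 3.72 RPKM in organoids, against 488 and 660.1 RPKM in the fresh libraries (log2 change −8.01, SE 0.69, adjusted p = 0.00616). Apoc1, a lipoprotein component, was at 0.291 and 0.997 RPKM in the organoid libraries and 215 and 178 RPKM in the fresh ones (log2 change −6.93, SE 0.44, adjusted p = 0.00482). Apoa1, the chief apolipoprotein of HDL, was listed at 0 in both organoid libraries, against 103 and 39.4 RPKM in fresh cells. The organoid values of these lipoprotein genes were all below 1 RPKM. Fgg, a chain of fibrinogen, was at 0 and 3.69 RPKM in the organoid libraries, against 83.4 and 90.01 RPKM in fresh cells. Ttr, the thyroid hormone carrier transthyretin, was at 6.998 and 6.98 RPKM in organoids and 209 and 173 RPKM in fresh cells. The members that did not pass include Trf, transferrin, at 206 and 24.7 RPKM in organoids, against 15.6 and 12.4 RPKM in the fresh libraries. Rbp4, the retinol carrier, was at 118 and 15.1 RPKM in the organoid libraries and 55.9 and 30.96 RPKM in the fresh ones. In both genes organoid replicate 1 was the highest of the 4 libraries. Hp, haptoglobin, was at 0.377 and 38.2 RPKM in the organoid libraries, against 30.6 and 16.4 RPKM in fresh cells, with organoid replicate 2 the highest. Ambp, the precursor of alpha-1-microglobulin and bikunin, fell (adjusted p = 0.0414) though its organoid values were 1.08 and 64.1 RPKM, against 863 and 824 RPKM in fresh cells.

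Enzymes of hepatocyte metabolism followed the same direction. Of 34 genes 24 were tested, and 15 fell and none rose (median log2 change −2.39), or 3 without organoid replicate 1 and 10 without organoid replicate 2. Cyp2e1, an ethanol-metabolising P450, was listed at 0 in organoids, against 16.8 and 5.40 RPKM in fresh cells. Fabp1, a fatty acid carrier, was at 0 and 0.0894 RPKM in organoids and 63.1 and 20.6 RPKM in fresh cells. Aldh1a1, a retinaldehyde dehydrogenase, fell to 1.20 and 4.31 RPKM in organoids, against 46.5 and 72.4 RPKM in fresh cells. Urea cycle genes with expression beyond hepatocytes stood the other way without passing, Ass1 at 20.5 and 4.51 RPKM in organoids, against 3.26 and 2.95 RPKM in the fresh libraries. Asl, the next enzyme of the cycle, was at 25.4 and 19.5 RPKM in the organoid libraries and 10.04 and 9.52 RPKM in the fresh ones. The part of hepatocyte RNA in the sorted fresh cells, as summed above over 10 markers, moves with these falls, and its share in them was not tested. The sum of the 10 markers was 1049 and 1068 RPKM in the fresh libraries, and its largest part, Alb, was higher in fresh replicate 2. Most of these lists leaned to fresh replicate 1. The median log2 difference of fresh replicate 1 minus replicate 2 was 0.71 for plasma proteins and 0.44 for hepatocyte metabolism. It was 0.49 for the tested hepatocyte markers and −0.0058 for all genes tested. Mup3 (173 and 47.9 RPKM) and Fabp1 were among the genes higher in fresh replicate 1.

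Genes of the early response to stimulation were high in fresh cells and low in organoids. Of 28 tested, 17 fell and none rose (median log2 change −2.65), and the count was 4 without organoid replicate 1 and 17 without organoid replicate 2. Among AP-1 subunits, Fosl1 was at 2.16 and 14.7 RPKM in the organoid libraries, against 792 and 1127 RPKM in fresh cells (log2 change −7.07, SE 0.71, adjusted p = 0.00746). Fosb was at 0.0347 and 0.206 RPKM in organoids and 28.1 and 57.5 RPKM in fresh cells. Fos was at 20.6 and 29.8 RPKM in organoids, against 371 and 354 RPKM in the fresh libraries (log2 change −3.82, SE 0.36, adjusted p = 0.00664). Junb fell less and remained abundant, at 256 and 258 RPKM in the organoid libraries and 732 and 942 RPKM in the fresh ones (log2 change −1.69, SE 0.33, adjusted p = 0.0296). Jund was at 38.2 and 47.7 RPKM in the organoid libraries, against 95.2 and 87.1 RPKM in fresh cells and did not pass (adjusted p = 0.0935). Atf3, a stress-induced repressor, was at 7.25 and 16.1 RPKM in organoids and 387 and 603 RPKM in fresh cells. Egr1, a zinc finger factor of growth signals, was at 5.85 and 20.3 RPKM in organoids, against 492 and 359 RPKM in the fresh libraries. Csrnp1, a nuclear factor induced with them, was at 1.54 and 1.26 RPKM in the organoid libraries and 56.9 and 122 RPKM in the fresh ones (log2 change −5.14, SE 0.48, adjusted p = 0.00664).

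Feedback genes of the same response fell with it. Zfp36, which destabilises cytokine messages, was at 8.02 and 10.1 RPKM in the organoid libraries, against 272 and 339 RPKM in fresh cells (log2 change −4.93, SE 0.34, adjusted p = 0.00573). Dusp1, a phosphatase that switches off MAP kinases, was at 47.4 and 50.6 RPKM in organoids and 539 and 578 RPKM in fresh cells. Its relative Dusp5 was at 1.87 and 15.1 RPKM in organoids, against 100.1 and 199 RPKM in the fresh libraries. Ier3, an early response gene of cell survival, stayed high, at 1679 and 750.4 RPKM in the organoid libraries and 2373 and 2672 RPKM in the fresh ones (adjusted p = 0.166). Myc was at 18.2 and 68.3 RPKM in the organoid libraries, against 182 and 315 RPKM in fresh cells (adjusted p = 0.0515). The AP-1 letters TGANTCA were found in 14.7% of 449 windows of all lower genes, 4.42% of 498 windows of higher genes and 6.50% of tested genes' windows, and in 1 of 14 windows of the lower early response genes themselves. Fresh cells had just been dissociated and sorted, so isolation and the tissue state cannot be told apart in these values.

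Chaperones and amino acid response genes were lower too. Of 16 heat shock chaperones 5 fell and none rose (1 without organoid replicate 1, 8 without organoid replicate 2). Hspa1a, the inducible HSP70, was at 0.975 and 3.45 RPKM in organoids and 62.7 and 79.5 RPKM in fresh cells (log2 change −4.59, SE 0.51, adjusted p = 0.00921). Its near-identical neighbour Hspa1b, whose reads may be shared with it, was at 0.103 and 1.57 RPKM in organoids, against 7.34 and 9.19 RPKM in the fresh libraries. Hspb1, the small chaperone HSP27, was at 6.03 and 12.6 RPKM in the organoid libraries and 106 and 139 RPKM in the fresh ones (log2 change −3.65, SE 0.54, adjusted p = 0.0156). The constitutive chaperone Hspa8 did not pass, at 107 and 99.5 RPKM in organoids and 73.3 and 82.9 RPKM in fresh cells. Hsp90ab1, another constitutive chaperone, was at 827 and 1008 RPKM in organoids and 858 and 1187 RPKM in fresh cells. Of 23 genes of amino acid transport and tRNA charging, many of them targets of ATF4, 10 fell and none rose (3 without organoid replicate 1, 12 without organoid replicate 2). Chac1, which degrades glutathione, was at 3.003 and 4.56 RPKM in the organoid libraries, against 174 and 176 RPKM in fresh cells (log2 change −5.22, SE 0.39, adjusted p = 0.00573). Trib3, a pseudokinase that restrains ATF4, was at 8.03 and 3.49 RPKM in organoids and 81.3 and 80.8 RPKM in fresh cells. Mthfd2, a mitochondrial folate enzyme, was at 5.80 and 15.6 RPKM in organoids, against 109 and 110.4 RPKM in the fresh libraries. Atf4 itself fell to 71.9 and 82.9 RPKM in organoids, against 339 and 557 RPKM in fresh cells (log2 change −2.48, SE 0.40, adjusted p = 0.0181). Ddit3, the stress factor CHOP, was at 46 and 4.16 RPKM in the organoid libraries and 8.95 and 16.1 RPKM in the fresh ones, highest in organoid replicate 1. Phgdh, the entry enzyme of serine synthesis, stood the other way without passing, at 25.2 and 82.6 RPKM in the organoid libraries, against 19.6 and 22.4 RPKM in fresh cells.

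Some chemokine and NF-kB genes fell, and 6 of 22 chemokine and cytokine genes were over 4-fold higher in organoid replicate 2 than in replicate 1, where 2.19% of all genes tested were. Of 22 chemokine and cytokine genes tested 5 fell (median log2 change −1.34, 2 without organoid replicate 1 and 7 without organoid replicate 2), and of 19 NF-kB pathway genes 8 fell (median −2.23, 0 without organoid replicate 1 and 12 without organoid replicate 2), with none higher in either list. Cxcl2, a neutrophil chemokine, was at 10.2 and 45.4 RPKM in organoids and 1523 and 1373 RPKM in fresh cells (log2 change −5.98, SE 0.63, adjusted p = 0.00891). Cxcl10, an interferon-induced T cell chemokine, was at 0.0642 and 0.725 RPKM in organoids, against 28.5 and 32.4 RPKM in the fresh libraries (log2 change −4.53, SE 0.52, adjusted p = 0.00942). Lif, a cytokine of the IL-6 family, was at 1.61 and 9.30 RPKM in the organoid libraries and 85.2 and 134 RPKM in the fresh ones (log2 change −4.38, SE 0.69, adjusted p = 0.0177). The organoid values of these 3 were all below the fresh values by more than 9-fold. Cxcl1, the neighbour and close relative of Cxcl2, was at 0.424 and 184 RPKM in the organoid libraries, against 1957 and 2065 RPKM in fresh cells, a spread between organoid libraries that left it without a call (adjusted p = 0.0711). Ccl2, the monocyte chemokine, was at 8.45 and 331 RPKM in organoids and 76.1 and 101 RPKM in fresh cells, so that 1 organoid library was below and the other above the fresh pair. Cxcl5 stayed high throughout, at 1586 and 2213 RPKM in organoids, against 1403 and 1172 RPKM in the fresh libraries (adjusted p = 0.560).

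Within the NF-kB pathway, Icam1, a leukocyte adhesion molecule, was at 61.1 and 131 RPKM in the organoid libraries and 902 and 1273 RPKM in the fresh ones (log2 change −3.57, SE 0.45, adjusted p = 0.0117). Nfkbia, the inhibitor IkBα that NF-kB itself induces, was at 122 and 211 RPKM in the organoid libraries, against 705 and 1126 RPKM in fresh cells (log2 change −2.47, SE 0.49, adjusted p = 0.0296). The NF-kB subunit Rel was at 2.55 and 1.25 RPKM in organoids and 27.7 and 22.01 RPKM in fresh cells. Nfkbiz, a nuclear IkB protein, was at 16.8 and 22 RPKM in organoids, against 155 and 206 RPKM in the fresh libraries (log2 change −3.15, SE 0.34, adjusted p = 0.00904). In all 4 genes both organoid libraries were below both fresh ones, as in every gene called lower. Ikbke, a kinase of the interferon branch, stood the other way at 4.48 and 13.6 RPKM in the organoid libraries and 2.57 and 3.59 RPKM in the fresh ones (adjusted p = 0.263).

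Antimicrobial genes did not move together. Of 17 tested, 2 fell and none rose (0 and 1 lower with an organoid library left out). Pigr, the receptor that carries IgA into bile, was at 0.485 and 1.67 RPKM in the organoid libraries, against 126 and 42.5 RPKM in fresh cells (log2 change −5.22, SE 0.79, adjusted p = 0.0162). Hamp, the iron hormone hepcidin of hepatocytes, was listed at 0 in organoids, against 20.3 and 35.9 RPKM in fresh cells. Lcn2, an iron-scavenging protein of inflamed epithelium, was almost equal in all 4 libraries, at 1648 and 1816 RPKM in organoids and 1649 and 1739 RPKM in fresh cells (log2 change 0.03, SE 0.38). Wfdc2, a secreted protease inhibitor, was at 5268 and 786 RPKM in organoids, against 312 and 86.2 RPKM in the fresh libraries. Its organoid libraries were above the fresh ones but 6.71-fold apart, and it did not pass (adjusted p = 0.0711).

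Interferon-induced genes and antigen presentation were lower in organoids. Of 27 interferon response genes tested 12 fell and none rose (median log2 change −1.92), and the count was 0 without organoid replicate 1 and 7 without organoid replicate 2. Oasl1, an OAS-like inhibitor of Irf7 translation, was at 0.139 and 0.379 RPKM in the organoid libraries and 23.7 and 10.03 RPKM in the fresh ones (log2 change −3.72, SE 0.52, adjusted p = 0.0136). Ifit3, an RNA-binding antiviral protein, was at 0.456 and 0.539 RPKM in the organoid libraries, against 14.7 and 14.03 RPKM in fresh cells (log2 change −3.36, SE 0.46, adjusted p = 0.0132). Igtp, an interferon-induced GTPase, was at 1.14 and 1.79 RPKM in organoids and 20.4 and 21.4 RPKM in fresh cells. Isg15, a ubiquitin-like modifier, was at 1.82 and 1.18 RPKM in organoids, against 17.9 and 15.1 RPKM in the fresh libraries (log2 change −2.82, SE 0.52, adjusted p = 0.0248). The organoid libraries were close to each other in these genes and, as in every gene called lower, lay below the fresh pair. Bst2, tetherin, stood the other way at 47.8 and 66.4 RPKM in the organoid libraries and 26 and 25.9 RPKM in the fresh ones (adjusted p = 0.120). Stat2, which carries the interferon signal to the nucleus, was at 2.76 and 4.41 RPKM in the organoid libraries, against 2.94 and 5.02 RPKM in fresh cells.

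The promoter window of Isg15 (RefSeq, GRCm38.p6, chr4:156200769-156201068, minus strand) is shown for its interferon-stimulated response element, with every base of a match (TTTC and TTTC with 2 bases between them) on either strand in capitals.
Isg15: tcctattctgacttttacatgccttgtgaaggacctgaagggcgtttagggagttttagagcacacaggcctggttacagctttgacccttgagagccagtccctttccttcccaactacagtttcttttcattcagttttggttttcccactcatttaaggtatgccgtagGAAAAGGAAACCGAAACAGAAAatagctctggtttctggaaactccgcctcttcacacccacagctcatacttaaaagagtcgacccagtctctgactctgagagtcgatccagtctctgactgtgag
The 3 matches lie on the opposite strand and overlap each other. Of the 12 lower interferon genes 10 had a window, and 7 (70.0%) held the letters, against 3.51% of tested genes' windows and 6.90% of those of all lower genes. The list is made of known interferon-induced genes, so the share describes the list and not these libraries.

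Antigen presentation genes fell in 12 of 25 tested, with none higher (median log2 change −1.34, 2 without organoid replicate 1 and 13 without organoid replicate 2). Class II genes were at or near 0 in organoids. Cd74, the invariant chain, was at 1.90 and 3.44 RPKM in organoids and 257 and 254 RPKM in fresh cells (log2 change −6.16, SE 0.38, adjusted p = 0.00482), and H2-Aa, H2-Ab1 and H2-Eb1 were each listed at 0 in both organoid libraries. In fresh cells H2-Aa was at 10.8 and 9.95 RPKM, H2-Ab1 at 37.4 and 24.8 RPKM and H2-Eb1 at 14.2 and 13.9 RPKM. Immune cell markers stood beside this at a low level, 1 of them lower in organoids without passing. Csf1r, a receptor of macrophages, which can carry class II, was at 1.92 and 1.79 RPKM in organoids, against 5.21 and 10.9 RPKM in the fresh libraries (log2 change −1.59, SE 0.46, adjusted p = 0.0777), and its part in the class II fall was not tested. Ptprc, the pan-leukocyte antigen CD45, was listed at 0 in both organoid libraries and in fresh replicate 2 and was at 0.0143 RPKM in fresh replicate 1. Cd68 was at 22.1 and 7.004 RPKM in the organoid libraries and 21.7 and 7.57 RPKM in the fresh ones. Nlrc5, the class I transactivator, was listed at 0 in organoids, against 4.30 and 4.27 RPKM in fresh cells (log2 change −2.40, SE 0.39, adjusted p = 0.0188). The class I gene H2-K1 fell but stayed abundant, at 207 and 159 RPKM in the organoid libraries, against 880.2 and 1009 RPKM in fresh cells. H2-D1 fell likewise, at 160.1 and 201 RPKM in organoids and 726 and 740.1 RPKM in fresh cells. They are highly similar in sequence, so their reads may be shared. Psmb8, a subunit of the immunoproteasome, was at 0.528 and 3.25 RPKM in organoids, against 29.9 and 24.7 RPKM in the fresh libraries. Chaperones used in peptide loading did not pass, among them Pdia3 at 447 and 486 RPKM in the organoid libraries and 275 and 257 RPKM in the fresh ones.

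**Figure D3:**
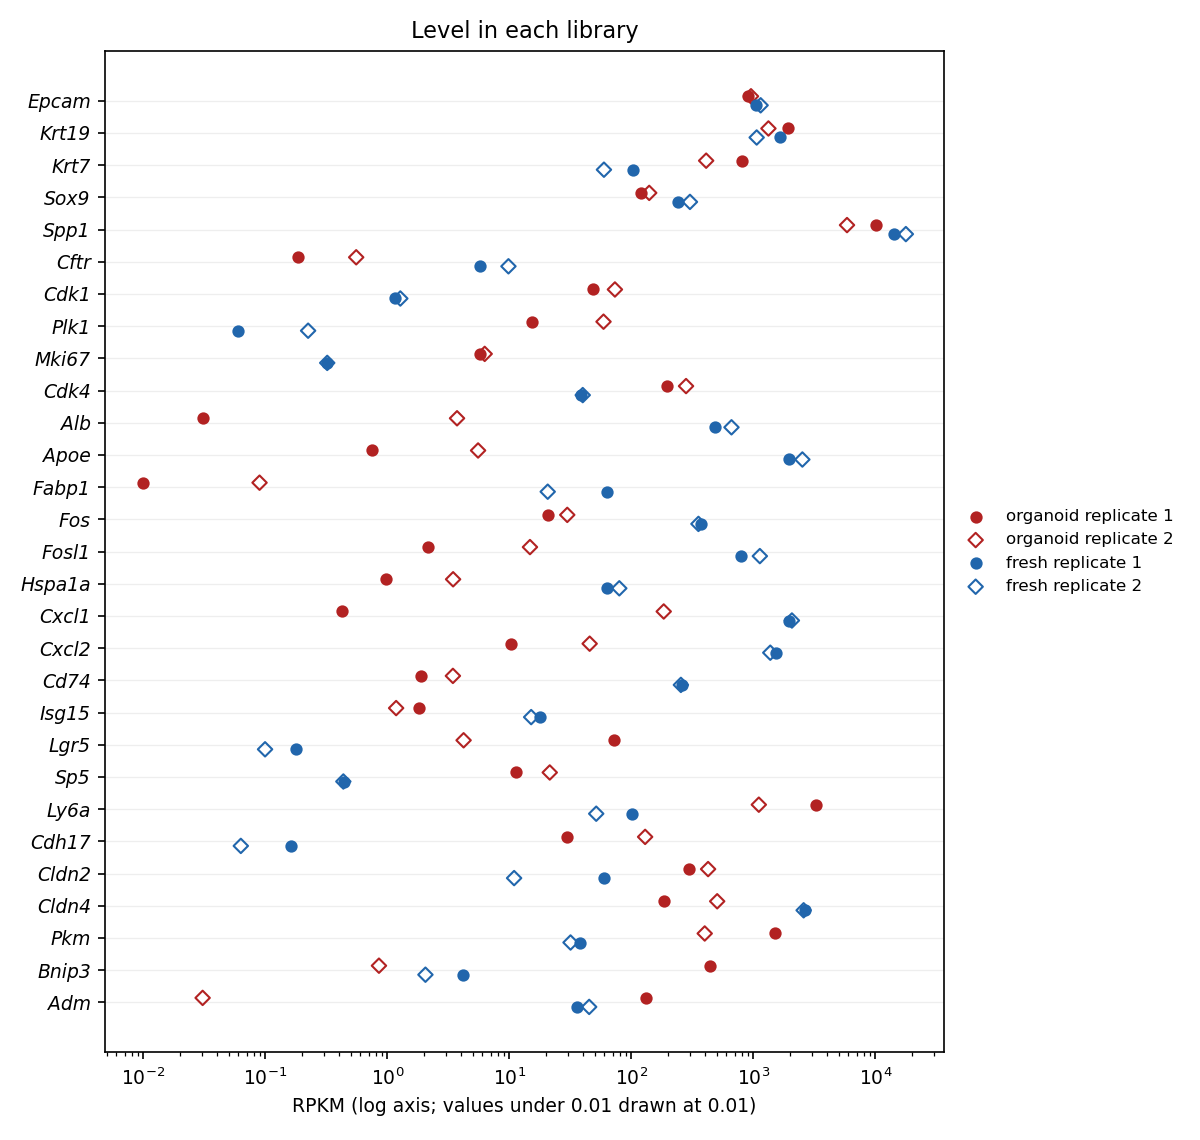
RPKM of 29 genes in each of the 4 libraries on a log x axis, with organoid libraries in red (upper row of each gene) and fresh libraries in blue (lower row). Circles are replicate 1 and open diamonds replicate 2, and values under 0.01 are drawn at 0.01. Epcam lies within 900.2 to 1144 RPKM in all 4 libraries, while the red symbols of Cxcl1, Bnip3 and Adm are spread far apart.

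Wnt pathway genes gave 3 increases, where 5.15% of all genes tested rose. Of 19 tested 3 rose and none fell, with a median log2 change of 1.01, and the count was 0 without organoid replicate 1 and 3 without organoid replicate 2. Wnt7a, a Wnt ligand, was at 25.6 and 55.1 RPKM in the organoid libraries, against 2.71 and 1.30 RPKM in fresh cells (log2 change 3.73, SE 0.51, adjusted p = 0.0133). Sp5, a transcription factor and direct Wnt target, was at 11.4 and 21.4 RPKM in organoids and 0.437 and 0.435 RPKM in fresh cells (log2 change 3.54, SE 0.55, adjusted p = 0.0177). Rnf43, a Wnt target that removes the receptor from the surface, was at 6.20 and 10.4 RPKM in organoids, against 0.580 and 0.766 RPKM in the fresh libraries (log2 change 2.44, SE 0.52, adjusted p = 0.0364). Organoid replicate 2 was the higher organoid library in each. Axin2, a feedback inhibitor induced by Wnt signalling, was at 1.30 and 8.88 RPKM in the organoid libraries and 0.0476 and 0.0447 RPKM in the fresh ones and did not pass (adjusted p = 0.0932). Lgr5 was at 72.03 and 4.21 RPKM in the organoid libraries, against 0.179 and 0.0992 RPKM in fresh cells. It was 17.1-fold higher in organoid replicate 1 than in replicate 2, whereas 17 of the 19 genes of the list were higher in replicate 2, and it did not pass (log2 change 4.10, SE 1.11, adjusted p = 0.0645). Its relative Lgr4 was at 2.13 and 6.30 RPKM in organoids and 8.30 and 10.6 RPKM in fresh cells (adjusted p = 0.309). Wnt7b, the most abundant Wnt gene of the list, was at 84.9 and 200.3 RPKM in organoids, against 35.8 and 22.6 RPKM in the fresh libraries (adjusted p = 0.0751). Sp5 lies at chromosome 2:70474923-70477729, Rnf43 at chromosome 11:87662722-87735539, Wnt7a at chromosome 6:91363981-91411363 and Lgr5 at chromosome 10:115450311-115587780.

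ErbB pathway genes gave calls both ways. Hbegf, an EGF receptor ligand, was at 39.8 and 50.5 RPKM in the organoid libraries and 587 and 827 RPKM in the fresh ones (log2 change −3.93, SE 0.34, adjusted p = 0.00616). Errfi1, which inhibits that receptor, was at 28.4 and 54.8 RPKM in the organoid libraries, against 528 and 963 RPKM in fresh cells (log2 change −4.14, SE 0.46, adjusted p = 0.00921). The receptor gene Erbb4 was listed at 0 in organoids, against 3.10 and 2.74 RPKM in fresh cells. Ereg, another ligand, rose to 2.08 and 2.90 RPKM in organoids, against 0 and 0.0681 RPKM in fresh cells. Areg was at 16.4 and 67.9 RPKM in organoids and 13.4 and 10.8 RPKM in fresh cells without passing (adjusted p = 0.251). Etv4, a transcription factor downstream of ERK, rose to 6.78 and 17.2 RPKM in organoids, against 1.29 and 1.19 RPKM in fresh cells. Egfr was at 2.52 and 9.30 RPKM in organoids, against 10.6 and 8.27 RPKM in the fresh libraries (adjusted p = 0.550). Met, the receptor of hepatocyte growth factor, was at 7.23 and 14.2 RPKM in the organoid libraries and 27.6 and 30.8 RPKM in the fresh ones (adjusted p = 0.130). Over the 23 genes tested 2 rose and 3 fell (median log2 change −0.30, 0 and 1 higher and 1 and 3 lower with an organoid library left out).

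YAP and TEAD target genes gave calls both ways, 5 higher and 3 lower of 23 tested (median log2 change −0.10). Ccn2, a matricellular protein and common YAP readout, rose to 12.03 and 24.4 RPKM in organoids, against 1.76 and 2.06 RPKM in fresh cells (log2 change 2.64, SE 0.50, adjusted p = 0.0266). Its relative Ccn1, also an early response gene, fell to 19.6 and 157 RPKM in organoids, against 661 and 1568 RPKM in fresh cells (log2 change −4.16, SE 0.996, adjusted p = 0.0479). Ankrd1, a nuclear and muscle ankyrin repeat protein used as a YAP readout, fell to 152 and 344 RPKM in organoids, against 889 and 1640.4 RPKM in fresh cells. Axl, a receptor tyrosine kinase, was at 13.4 and 19.3 RPKM in the organoid libraries, against 0.951 and 0.544 RPKM in fresh cells (log2 change 3.30, SE 0.51, adjusted p = 0.0173). Without organoid replicate 1 none of the list was called higher and none lower, and without organoid replicate 2 it was 1 higher and 2 lower.

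Notch and BMP genes gave few calls, where 5.15% of all genes tested rose and 4.94% fell. Of 12 Notch genes tested 1 rose, the ligand Jag2, to 3.53 and 3.001 RPKM in organoids, against 0.259 and 0.373 RPKM in fresh cells. With an organoid library left out, 1 and 2 of the list were higher. Hes1, a Notch target, was at 138 and 109 RPKM in organoids and 98.5 and 95.7 RPKM in fresh cells. The Notch median was 0.16, and −0.02 after quantile normalization. Of 21 BMP and TGF-beta genes 2 rose and 2 fell (0 and 2 each way with an organoid library left out). Fst, the activin antagonist follistatin, was at 19.02 and 51.3 RPKM in organoids, against 1.29 and 3.47 RPKM in the fresh libraries (log2 change 3.34, SE 0.63, adjusted p = 0.0265). Smad7, an inhibitor of the receptors, was at 9.91 and 7.99 RPKM in the organoid libraries and 1.51 and 1.41 RPKM in the fresh ones. Tgfb2, a ligand, fell to 1.91 and 1.43 RPKM in organoids, against 27.5 and 33.4 RPKM in fresh cells (log2 change −3.56, SE 0.53, adjusted p = 0.0156). Id3, a BMP target, fell to 7.22 and 8.28 RPKM in organoids, against 42.6 and 58.03 RPKM in fresh cells. Its relative Id2 was at 908 and 399 RPKM in the organoid libraries, against 148 and 153 RPKM in fresh cells, without passing.

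Some genes known from regenerating or fetal-type epithelium rose. Of 22 tested 5 rose and 2 fell (median log2 change 1.04), with 1 higher without organoid replicate 1 and 4 without organoid replicate 2. Msln, the surface protein mesothelin, was the most even, at 488 and 475 RPKM in organoids and 29.3 and 21.4 RPKM in fresh cells (log2 change 4.21, SE 0.33, adjusted p = 0.00573). Mesothelin also marks the mesothelium that covers the liver, so the other mesothelial markers stand beside it. Gpm6a was at 0 and 0.0148 RPKM in organoids, against 16.6 and 28.7 RPKM in the fresh libraries. Nkain4 was at 0.233 and 0.200 RPKM in the organoid libraries and 7.88 and 5.84 RPKM in the fresh ones. Both fell, and Upk3b, Wt1 and Lrrn4 were listed at 0 in both organoid libraries. S100a6, a calcium-binding protein, was at 2747 and 1581 RPKM in the organoid libraries, against 312 and 106 RPKM in fresh cells (log2 change 3.51, SE 0.62, adjusted p = 0.0230). Anxa8 was at 116 and 157 RPKM in organoids and 9.62 and 3.36 RPKM in fresh cells without passing (adjusted p = 0.0858). Anxa10, an annexin of stomach epithelium, fell to 0 and 0.0554 RPKM in organoids, against 33.5 and 11.1 RPKM in fresh cells. Vim, the intermediate filament of mesenchyme, was at 0.168 and 12.6 RPKM in organoids, against 1.70 and 1.05 RPKM in the fresh libraries, above the fresh level in organoid replicate 2 only (adjusted p = 0.667).

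Genes of gut epithelium did not move as a set. Of 22 tested 2 rose and none fell (median log2 change −0.46), namely Cdh17 and Cdx2 (1 and 2 with an organoid library left out). Cdx2, the transcription factor that specifies intestine, was at 3.26 and 2.23 RPKM in organoids and listed at 0 in both fresh libraries (log2 change 1.89, SE 0.30, adjusted p = 0.0177). Some genes of the list differed widely between the fresh libraries, and those named next were chosen after their values were seen. Gkn3, a gastrokine, was at 0.591 and 0.404 RPKM in the organoid libraries and 4.75 and 414 RPKM in the fresh ones, and Gkn2 was listed at 0 in 3 libraries and at 43.1 RPKM in fresh replicate 2. Tff2, a trefoil peptide, was at 8.54 and 3.64 RPKM in the organoid libraries, against 96.6 and 264 RPKM in fresh cells (adjusted p = 0.115). Spink4 went the other way, at 653 and 67.6 RPKM in organoids and 926 and 24.7 RPKM in fresh cells, so the fresh libraries differed from each other in both directions.

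Some junction genes fell. Of 20 genes of the tight junction and adherens junction 1 rose and 4 fell (median log2 change −0.91). With an organoid library left out 0 and 0 were higher and 0 and 9 lower, and 1 of 20 higher is near the 5.15% of all genes. Cldn2, a pore-forming claudin that lets cations and water through, was at 295 and 424 RPKM in organoids, against 59.01 and 10.9 RPKM in the fresh libraries (log2 change 3.73, SE 0.73, adjusted p = 0.0293). Cldn4, a sealing claudin and the most abundant of the list in fresh cells, was at 184 and 504 RPKM in the organoid libraries and 2637 and 2576 RPKM in the fresh ones (log2 change −3.09, SE 0.54, adjusted p = 0.0224). Ocln, occludin, was at 34.6 and 37.7 RPKM in the organoid libraries, against 159 and 158 RPKM in fresh cells (log2 change −2.10, SE 0.32, adjusted p = 0.0164). The ranges of organoid and fresh values were separate in all 3, as in every called gene. Cldn7 did not pass, at 367 and 408 RPKM in organoids and 707 and 612 RPKM in fresh cells. E-cadherin, Cdh1, was at 78.3 and 254 RPKM in organoids, against 507 and 608 RPKM in the fresh libraries (adjusted p = 0.0760). Cldn6, a claudin of embryonic epithelium, was at 0.144 and 222 RPKM in the organoid libraries and 42.8 and 77.1 RPKM in the fresh ones, the widest gap in favour of organoid replicate 2 on log2(RPKM + 1) among genes with an organoid mean of at least 20 RPKM.

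Matrix and protease genes gave single calls. Among all genes tested 5.15% rose and 4.94% fell, and the cytoskeleton counts below are near these shares. Fn1, fibronectin, was at 46.2 and 101 RPKM in the organoid libraries, against 11.5 and 16.2 RPKM in fresh cells (log2 change 2.24, SE 0.52, adjusted p = 0.0446). Its receptor subunit Itga5 was at 2.01 and 12.7 RPKM in organoids and 77.04 and 121 RPKM in fresh cells (log2 change −3.93, SE 0.73, adjusted p = 0.0258). Sparc, a collagen-binding matrix protein, was at 0.0859 and 0.911 RPKM in organoids, against 23.8 and 22.8 RPKM in the fresh libraries. Mmp7, a protease of injured epithelium, was at 631 and 709.8 RPKM in the organoid libraries and 145 and 43.3 RPKM in the fresh ones (log2 change 3.06, SE 0.58, adjusted p = 0.0265). Plaur, the urokinase receptor, fell to 20.7 and 131 RPKM in organoids, against 1042 and 1183 RPKM in fresh cells (log2 change −4.38, SE 0.78, adjusted p = 0.0232). Of 26 integrin, laminin and collagen genes 1 rose and 3 fell, and of 21 proteases and inhibitors 1 rose and 2 fell. With an organoid library left out the first had 0 and 0 higher and 0 and 4 lower, and the other 0 and 2 higher and 1 and 4 lower. In the cytoskeleton (32 tested, 2 higher, 2 lower, or 1 and 3 higher and 0 and 3 lower with an organoid library left out) the tubulins Tubb5 and Tuba1b rose, Tubb5 to 577 and 523 RPKM in organoids, against 36.7 and 54.2 RPKM in fresh cells (log2 change 3.59, SE 0.34, adjusted p = 0.00664). Tuba1b has close copies among the alpha tubulins, so its assignment is uncertain. Tuba1c, such a copy, stood the other way at 118 and 101 RPKM in the organoid libraries, against 269 and 245 RPKM in fresh cells, without passing.

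Of 9 tested genes of the insulin-like growth factor axis 3 rose and none fell (1 and 2 with an organoid library left out), all of them binding proteins. Igfbp4 was at 154 and 295 RPKM in organoids and 5.24 and 5.77 RPKM in fresh cells (log2 change 5.04, SE 0.46, adjusted p = 0.00649). Igfbp3 was at 18.7 and 40.7 RPKM in organoids, against 2.12 and 0.673 RPKM in the fresh libraries (log2 change 3.65, SE 0.58, adjusted p = 0.0180). Igfbp7, a matricellular relative, was at 3434 and 2622 RPKM in the organoid libraries and 485 and 682 RPKM in the fresh ones (log2 change 2.38, SE 0.42, adjusted p = 0.0222). All 3 had organoid values above every fresh value, as had every gene called higher. The ligand Igf1 was at 0 and 0.125 RPKM in the organoid libraries, against 3.64 and 4.75 RPKM in fresh cells (adjusted p = 0.113). Igf1r, its receptor, was at 2.06 and 2.43 RPKM in organoids and 1.56 and 3.09 RPKM in fresh cells.

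Antioxidant and lipid genes gave few calls, where 5.15% of all genes tested rose and 4.94% fell. Of 26 NRF2 and glutathione genes 3 rose and 2 fell (median 0.01, and −0.13 after centring, with 0 and 4 each way when an organoid library was left out). Gpx2, an epithelial glutathione peroxidase, was at 1349 and 613 RPKM in organoids, against 77.7 and 40.1 RPKM in the fresh libraries (log2 change 4.001, SE 0.62, adjusted p = 0.0167). Prdx6 was at 322 and 245 RPKM in the organoid libraries and 74.7 and 59.8 RPKM in the fresh ones. Hmox1, heme oxygenase, was at 36.4 and 9.93 RPKM in the organoid libraries, against 233 and 148 RPKM in fresh cells (log2 change −3.21, SE 0.61, adjusted p = 0.0271). Srxn1, sulfiredoxin, was at 6.51 and 19.8 RPKM in organoids and 141 and 101 RPKM in fresh cells. Gpx2 and Prdx6 were thus high in organoids and Hmox1 and Srxn1 high in fresh cells. Of 21 genes of fatty acids and lipids 1 rose and 2 fell (1 and 1 higher, 0 and 2 lower with an organoid library left out). Scd2, a fatty acid desaturase, rose to 144 and 134 RPKM in organoids, against 8.70 and 11.4 RPKM in fresh cells (log2 change 3.67, SE 0.32, adjusted p = 0.00616). Cd36, a fatty acid receptor, was listed at 0 in organoids, against 8.09 and 18.02 RPKM in fresh cells. Dgat2, which completes triglyceride synthesis, fell to 6.50 and 8.21 RPKM in organoids, against 63.7 and 41.95 RPKM in fresh cells. Of 24 cholesterol genes 1 rose by limma and none fell (0 and 1 higher with an organoid library left out). Hmgcs1, an early enzyme of synthesis, was at 67.01 and 118 RPKM in organoids, against 68.9 and 114 RPKM in the fresh libraries.

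Targets of p53 gave calls both ways, 5 higher and 4 lower of 24 tested. Phlda3, which restrains AKT, was at 121 and 262 RPKM in the organoid libraries and 7.36 and 6.67 RPKM in the fresh ones (log2 change 4.48, SE 0.43, adjusted p = 0.00664). Ccng1, cyclin G1, was at 118 and 223 RPKM in the organoid libraries, against 16.7 and 11.4 RPKM in fresh cells (log2 change 3.46, SE 0.45, adjusted p = 0.0122). Bax, a promoter of apoptosis, was at 314 and 370.3 RPKM in organoids and 46.2 and 47.01 RPKM in fresh cells (log2 change 2.84, SE 0.30, adjusted p = 0.00891). In each the organoid values exceeded the fresh values by more than 5-fold. Gdf15, a secreted stress cytokine, fell to 3.63 and 17.2 RPKM in organoids, against 132 and 123 RPKM in fresh cells (log2 change −3.81, SE 0.64, adjusted p = 0.0205). Sesn2, sestrin 2, fell to 8.34 and 24.9 RPKM in organoids, against 93.4 and 93.1 RPKM in fresh cells. Fas, a death receptor, fell to 3.17 and 5.05 RPKM in organoids, against 22.9 and 21.7 RPKM in fresh cells. With an organoid library left out 2 and 3 of the list were higher and 1 and 5 lower. Apoptosis regulators, which share Bax and Birc5 with other lists, had 3 higher and 2 lower of 20 (1 and 3 higher, 0 and 2 lower with an organoid library left out), with a median of 0.13 that became −0.04 after quantile normalization.

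Secretory pathway genes gave calls both ways. Of 21 tested 5 rose and 3 fell (median log2 change 0.64), with 1 and 5 higher and 2 and 2 lower when an organoid library was left out. Ppic, the prolyl isomerase cyclophilin C, was at 246 and 198 RPKM in organoids, against 6.02 and 3.63 RPKM in the fresh libraries (log2 change 5.28, SE 0.38, adjusted p = 0.00573). Sdf2l1, a partner of the chaperone BiP, was at 72.9 and 58.2 RPKM in the organoid libraries and 7.10 and 3.27 RPKM in the fresh ones (log2 change 3.49, SE 0.60, adjusted p = 0.0211). Sec61b, a subunit of the translocon, was at 109.8 and 64.4 RPKM in the organoid libraries, against 25.2 and 18.99 RPKM in fresh cells. Herpud1, a degradation factor, was at 102 and 91.7 RPKM in organoids and 522 and 484 RPKM in fresh cells (log2 change −2.37, SE 0.30, adjusted p = 0.0119). Hspa5, BiP itself, was at 240.4 and 227 RPKM in organoids, against 649.5 and 683 RPKM in the fresh libraries (log2 change −1.51, SE 0.33, adjusted p = 0.0394). Organoid and fresh values were fully separate in these 5 genes, as in every called gene.

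Ribosome biogenesis and chromatin genes gave few calls, where 5.15% of all genes tested rose and 4.94% fell. Of 28 MYC and ribosome biogenesis genes 2 rose and none fell (0 and 2 higher, 0 and 5 lower with an organoid library left out). Npm1, nucleophosmin, rose to 241 and 184 RPKM in organoids, against 47.4 and 62.9 RPKM in fresh cells. Eif5a, a translation factor, rose to 697 and 561 RPKM in organoids, against 218 and 218 RPKM in fresh cells. The list's median was −0.73, −0.18 without organoid replicate 1 and −1.54 without organoid replicate 2. Of 31 chromatin genes 3 rose and 1 fell (0 and 1 each way with an organoid library left out). Ezh2, the Polycomb methyltransferase, was at 12.8 and 8.50 RPKM in the organoid libraries and 2.31 and 1.71 RPKM in the fresh ones (log2 change 1.93, SE 0.47, adjusted p = 0.0492). Kdm6b, which removes its mark, was at 1.60 and 3.34 RPKM in the organoid libraries, against 20.9 and 37.2 RPKM in fresh cells (log2 change −3.10, SE 0.56, adjusted p = 0.0243). Tet1, the enzyme that oxidises methylated cytosine, was at 0.290 and 0.182 RPKM in organoids and 0.0223 and 0.0334 RPKM in fresh cells, too low to be tested.

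More genes differed between the organoid libraries than between the fresh libraries. Of 12900 genes 517 (4.01%) were over 4-fold apart between organoid replicates, 234 (1.81%) higher in replicate 1 and 283 (2.19%) in replicate 2, against 122 between the fresh libraries and 1110 between the libraries cultured for 12 h. Among genes with a pair mean of at least 20 RPKM the figures were 202 of 3000 (6.73%) for organoids, 45 of 2611 (1.72%) for fresh cells and 59 of 3216 (1.83%) for the pair cultured for 12 h. Replicate 1 was the higher of the organoid pair in 3872 genes (30.0%), and the median log2 difference was −0.38. With 1 library on each side these are descriptions and carry no test. Of the 1301 called genes 26 were over 4-fold apart between organoid libraries, 4 higher in replicate 1 and 22 in replicate 2.

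Genes of hypoxia and glycolysis were higher in organoid replicate 1 than in replicate 2. Of 18 hypoxia response genes 17 were higher in replicate 1, 12 of them over 4-fold, and their median log2 difference between the organoid libraries was 2.61. Bnip3, a mitochondrial protein of mitophagy, was at 441 and 0.852 RPKM in organoids, against 4.14 and 2.05 RPKM in the fresh libraries. Adm, the vasodilator adrenomedullin, was at 132 and 0.0305 RPKM in the organoid libraries and 35.7 and 45 RPKM in the fresh ones. Ndrg1, a stress-responsive differentiation gene, was at 199 and 2.92 RPKM in the organoid libraries, against 73.6 and 81.2 RPKM in fresh cells. In Adm and Ndrg1 the fresh pair lay between the organoid libraries, and in Bnip3 it lay just above organoid replicate 2. Pdk1, which keeps pyruvate out of mitochondria, was at 40.4 and 3.44 RPKM in organoids and 1.32 and 1.14 RPKM in fresh cells. Egln3, an oxygen-sensing hydroxylase, was at 319 and 24.7 RPKM in organoids, against 16.2 and 14.8 RPKM in the fresh libraries. Ankrd37, a gene induced under low oxygen, was at 41.9 and 1.34 RPKM in the organoid libraries and 0.748 and 0.676 RPKM in the fresh ones. In these 3 genes organoid replicate 2 was above the fresh pair too, by far less. Vegfa, the vascular growth factor, was at 19.95 and 1.77 RPKM in the organoid libraries, against 14.4 and 9.22 RPKM in fresh cells. Car9, a carbonic anhydrase, went the other way, at 3.33 and 24.7 RPKM in organoids and 59.4 and 3.003 RPKM in fresh cells. None of the 18 passed by limma in the comparison with fresh cells (5 higher and 0 lower at an unadjusted p under 0.05, median log2 change 1.60, 6 of 18 with a fitted change below 0). Relative to fresh cells the median was 2.65 for organoid replicate 1 alone and 0.29 for replicate 2 alone.

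Of 18 glycolysis genes 17 were higher in organoid replicate 1, 10 of them over 4-fold, with a median log2 difference of 2.34. Aldoa, the aldolase of muscle and most cells, was at 2182 and 104 RPKM in organoids, against 180 and 100 RPKM in the fresh libraries. Ldha, lactate dehydrogenase, was at 1992 and 256 RPKM in the organoid libraries and 92.5 and 78.6 RPKM in the fresh ones. Pgk1 was at 105 and 4.85 RPKM in the organoid libraries, against 3.24 and 3.40 RPKM in fresh cells. Gapdh, a gene with many processed copies, was at 199 and 27.3 RPKM in organoids and 10.9 and 10 RPKM in fresh cells. Replicate 2 was above the fresh pair in Ldha and Gapdh and within or just above it in Aldoa and Pgk1. In this list 3 members rose against fresh cells, and their organoid libraries were less than 4-fold apart. Pkm was at 1513 and 398 RPKM in organoids, against 38.1 and 31.7 RPKM in the fresh libraries (log2 change 4.44, SE 0.63, adjusted p = 0.0140). Hk1 was at 23.1 and 15.7 RPKM in the organoid libraries and 4.26 and 4.05 RPKM in the fresh ones (log2 change 1.96, SE 0.42, adjusted p = 0.0363). Hk2 was at 5.56 and 3.34 RPKM in the organoid libraries, against 0.483 and 0.347 RPKM in fresh cells (log2 change 1.92, SE 0.40, adjusted p = 0.0352). The list's count was 0 without organoid replicate 1 and 13 without organoid replicate 2, and its median log2 change 0.87 and 3.38. Slc2a1, the glucose transporter, was at 74.8 and 56.99 RPKM in organoids and 102 and 159.9 RPKM in fresh cells, below the fresh pair in both (adjusted p = 0.148). Oxidative phosphorylation genes (27 tested, none called by limma, 14 higher and 0 lower at an unadjusted p under 0.05) had a median log2 change of 1.07. Of the 27, 17 were higher in organoid replicate 1, where 30.0% of all genes tested were. Their lean to replicate 1 was not particular to organoids. The median log2 difference of replicate 1 minus replicate 2 was 0.40 in organoids and 0.53 in fresh cells. Cox4i1, a subunit of cytochrome oxidase, was at 2494 and 520.3 RPKM in organoids, against 488 and 309.9 RPKM in the fresh libraries.

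The window of Bnip3 (RefSeq, GRCm38.p6, chr7:138909457-138909756, minus strand) is shown because this gene had the widest gap in favour of organoid replicate 1 on log2(RPKM + 1) among those with an organoid mean of at least 20 RPKM. Capitals mark ACGTG, the core of the HIF response element, on either strand, a motif chosen after the values were seen.
Bnip3: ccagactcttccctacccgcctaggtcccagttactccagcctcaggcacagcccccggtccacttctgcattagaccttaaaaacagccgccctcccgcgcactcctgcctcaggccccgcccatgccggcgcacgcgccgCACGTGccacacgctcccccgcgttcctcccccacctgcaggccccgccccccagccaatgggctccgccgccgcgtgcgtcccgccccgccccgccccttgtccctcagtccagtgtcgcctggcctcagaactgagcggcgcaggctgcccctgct
The 2 matches overlap as CACGTG. Of the 18 hypoxia genes 15 had a window, and 11 (73.3%) held ACGTG, against 29.7% of tested genes' windows. The list is made of known HIF targets, so the share describes the list and not these libraries.

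Among genes that averaged 20 RPKM or more in the organoid pair, the 10 highest in replicate 1 relative to replicate 2, ranked on log2(RPKM + 1), were Bnip3, Adm, Sprr1a, Ndrg1, Pgf, Ppp1r3b, Fgfbp1, Bsg, Ero1l and Aldoc, 5 of them in the hypoxia or glycolysis lists. Bsg, basigin, a chaperone of lactate transporters, reached 15618 and 547 RPKM in organoids, against 405 and 314 RPKM in fresh cells. Sprr1a, a cornified envelope protein, was at 2383 and 39.1 RPKM in the organoid libraries and 5594 and 5669 RPKM in the fresh ones, with both fresh libraries above both organoid ones. Pgf, placental growth factor, was at 49.3 and 0 RPKM in the organoid libraries, against 2.24 and 0.533 RPKM in fresh cells. Ero1l, which oxidises protein thiols in the endoplasmic reticulum, was at 224 and 8.02 RPKM in organoids and 11.8 and 8.56 RPKM in fresh cells. In the other direction the 10 were Cldn6, Cxcl1, Ccl2, Gc, Ambp, Gpx3, Cmtm3, Vcam1, Tm4sf4 and Bok. Gc, the vitamin D carrier, was at 15.2 and 523 RPKM in organoids, against 45.3 and 41.2 RPKM in the fresh libraries. Vcam1, an adhesion molecule, was at 3.59 and 85.7 RPKM in the organoid libraries and 539 and 642 RPKM in the fresh ones (adjusted p = 0.0507). Tm4sf4, a tetraspanin-like protein of liver, fell in both, to 12.3 and 204 RPKM in organoids, against 3507 and 2425 RPKM in fresh cells (log2 change −5.80, SE 1.16, adjusted p = 0.0304).

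**Figure D4:**
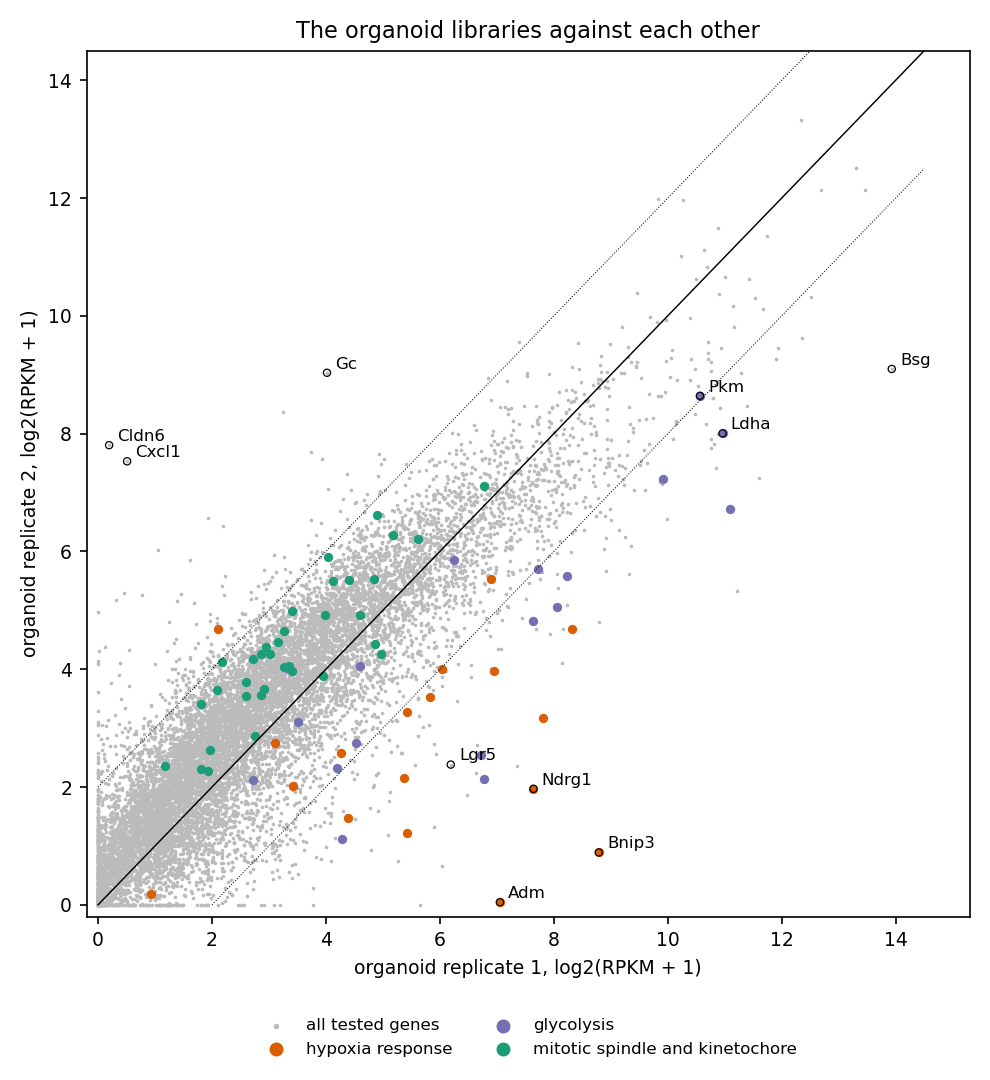
Log2(RPKM + 1) of each tested gene in organoid replicate 1 (x axis) and organoid replicate 2 (y axis), with the line of equality and dotted lines at a 4-fold difference. Hypoxia genes (orange) and glycolysis genes (purple) lie to the right of the line in 17 of 18 cases each, and mitotic genes (green) mostly above it.

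Cell division genes leaned to organoid replicate 2. The median log2 difference of replicate 1 minus replicate 2 was −0.95 for mitotic and −0.95 for replication genes, with 3 of 35 and 3 of 30 higher in replicate 1, where 30.0% of all genes were. Ribosome biogenesis genes had a median difference of −1.48, with 7 of 28 over 4-fold higher in replicate 2, among them Srm, spermidine synthase, at 19.6 and 92.9 RPKM in the organoid libraries, against 72.4 and 97.2 RPKM in fresh cells. Rrp12, an exporter of ribosomal subunits, was at 1.37 and 9.75 RPKM in organoids and 11.7 and 18.1 RPKM in fresh cells. Integrin, laminin and collagen genes had −1.14 and actin-binding genes −0.74. Agrn, agrin, was at 8.22 and 40.8 RPKM in organoids, against 9.14 and 12.5 RPKM in the fresh libraries. Flna, filamin A, was at 12.3 and 91.8 RPKM in the organoid libraries and 37.2 and 68.3 RPKM in the fresh ones. The falls of hepatocyte genes were present in both libraries, with list medians of −4.41 in replicate 1 and −3.44 in replicate 2 for plasma proteins. The ribosomal protein share and the gene length figures given above move with this contrast, and their part in it was not tested.

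**Figure D5:**
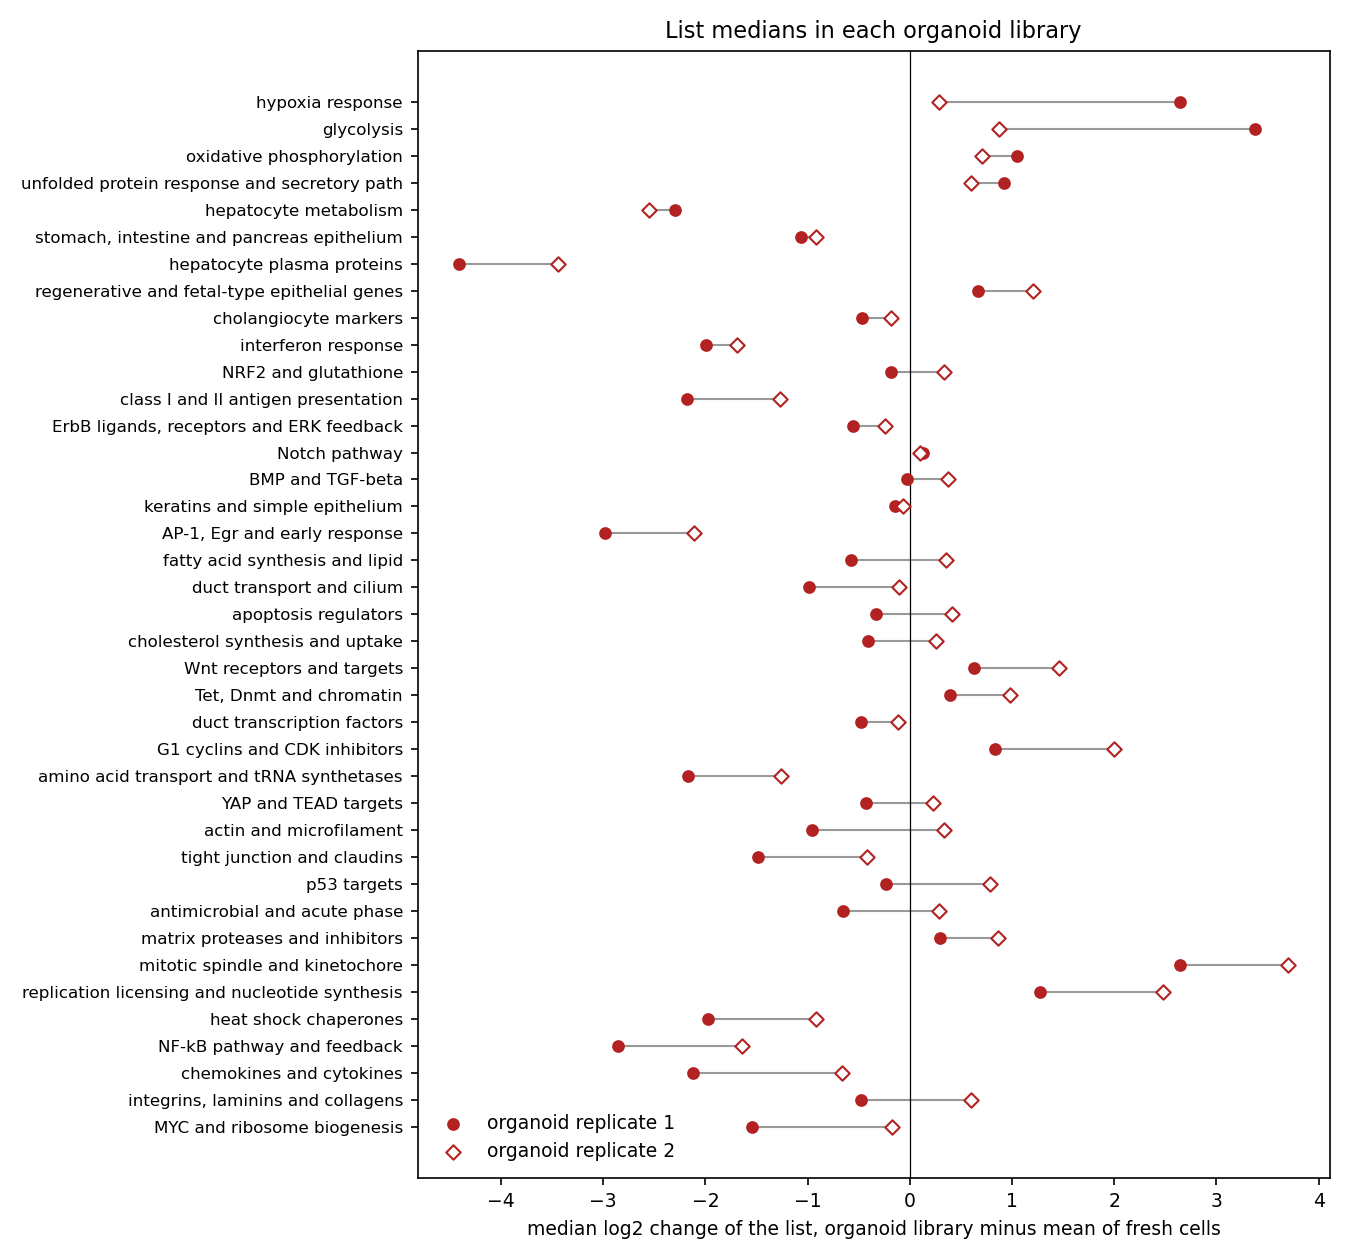
Median log2 change of each list with at least 10 tested genes, for organoid replicate 1 (filled circles) and organoid replicate 2 (open diamonds), each minus the mean of the fresh libraries. Lists are ordered by the median difference between the organoid libraries. Hypoxia lies at 2.65 and 0.29 and glycolysis at 3.38 and 0.87, while early response, hepatocyte and mitotic lists keep their direction in both.

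Markers of other cell types were low in organoids. The 12 mesenchymal and stellate markers summed to 0.198 and 0.283 RPKM in organoids and 14.7 and 4.47 RPKM in fresh cells, with 6 of the 12 listed at 0 in both organoid libraries. Dcn, decorin, the most abundant of them, was listed at 0 in organoids, against 8.12 and 2.58 RPKM in fresh cells, and did not pass (adjusted p = 0.0634). The 9 endothelial markers summed to 0.313 and 0.501 RPKM in organoids, with 7 of 9 listed at 0 in both organoid libraries, and 4.79 and 4.92 RPKM in fresh cells. Red blood cell genes (5) summed to 0.385 and 0.144 RPKM in organoids and 67.7 and 5.78 RPKM in fresh cells. The beta globin Hbb-bs was at 0.0838 and 0 RPKM in the organoid libraries, against 44.2 and 3.01 RPKM in fresh cells. Immune markers (12) summed to 26.5 and 11.8 RPKM in organoids and 29.6 and 21.3 RPKM in fresh cells, and 7 of the 12 were listed at 0 in both organoid libraries, Ptprc and Cd3e among them. Cd68, a lysosomal protein that is not confined to macrophages, and Csf1r made up most of these sums. Of these 4 lists 9 genes were tested, and none passed by limma (0 higher and 6 lower at an unadjusted p under 0.05).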

How the data were processed

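Libraries from EpCAM-sorted mouse liver cells were sequenced, and the authors deposited RPKM values per gene and library in 1 table of 47729 gene IDs. The submitters' processing notes name edgeR and the build GRCm38. The aligner, the counting step, the annotation, the use of strand and the treatment of reads shared by paralogs are not stated in the sources, so values of near-identical, overlapping and antisense genes are uncertain. Names (47310 IDs), coordinates and lengths came from GENCODE M21 on GRCm38, and 21036 genes were at 0 in all 8 libraries.

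RPKM times exon length gave whole multiples of a constant per library (88.3% to 91.2% of small values, within 0.01), from which effective reads were derived. These are an estimate of depth from the deposited RPKM, and the counting floor of 3 reads covers counting error only. The 12900 genes that reached 1 RPKM in 2 or more of the 8 libraries were put on the log2 scale as log2(RPKM + 1) and fitted with limma 3.58.1 in R 4.3.3, with 5 group coefficients, a variance trend in eBayes (3 residual and 3.65 prior degrees of freedom) and Benjamini-Hochberg adjustment at 0.05. A fold on this scale understates the change of genes with low RPKM. Folds between libraries and folds printed as N-fold were taken on RPKM itself, and 4-fold differences between libraries on log2(RPKM + 1). The fit was also run on simulated data in which a gene had the same spread in every library. Fitted library weights were 2.66 for each fresh and 0.502 for each organoid library. The simulation left out this unequal spread, and its outcome is not given here. Tables and plots were made with Python 3.11.15, pandas 2.3.3, numpy 2.4.6 and matplotlib 3.10.9.

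Members and lists were chosen with earlier results of these data known. Genes named are the 15 largest called increases and decreases with a mean of at least 5 RPKM and no overlap (predicted genes, pseudogenes and genes of ribosomal proteins, small RNAs and mitochondria left out), up to 4 called genes per direction of each list, 21 fixed genes, the 10 genes most in favour of each organoid library at a mean of at least 20 RPKM, list members over 4-fold apart between the organoid libraries, and markers of other cell types at 1 RPKM or more. Other genes given as examples were chosen after their values were seen. A few genes that the rule selects are not reported here. Promoter windows (250 bases before to 50 after the start) came from RefSeq on GRCm38.p6, for 27025 genes.

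Alternatives were other pseudocounts, filters, scalings, library weights, the 4 libraries alone, no variance trend, a replicate block and leaving out each library. The library titled 48h carries labels that disagree on its time, so its group was taken from its title alone.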

Additional observations from a re-analysis of the deposited data

How the results depend on the processing

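The number of genes called (1301) lay between 1077 and 1802 under every setting that kept the 4 compared libraries and a filter. These were pseudocounts of 0.1 (1100) and 5 RPKM (1156), a mean of at least 5 RPKM (1140) and median centring (1373). The others were quantile normalization (1802, of which 1009 lower), library weights (1416), no variance trend (1077), a replicate block (1422) and the 4 libraries alone (1451). With no filter on low values the number was 740 (262 higher). Across these settings 448 to 1232 of the 1301 genes were called. Leaving out 1 library gave 0 to 1418 calls, 0 to 729 higher and 0 to 689 lower; the lone library left in a group is then assumed to vary like the other groups. Without organoid replicate 1, 106 of 117 calls were among the 1301. For 154 named genes called, there were 1521 values under the settings that keep the 4 compared libraries. Of these, 1381 had the same direction and call, 140 were without the call and 0 were reversed. The groups of each called gene did not overlap, so these settings left little room for a reversed direction. With 1 of the 4 libraries left out, most values lost the call. Vim (log2 change −1.01 without organoid replicate 2) and Krt19 (−0.0484 without fresh replicate 2), neither of them called, changed sign, and the cause was not tested; only 13 of the named genes without a call were run under these settings. With each library left out in turn, Vim ranged between −1.01 and 2.53 and Krt19 between −0.0484 and 0.59. The labels do not state whether libraries with the same replicate number are paired across groups, and pairing was not tested. The differences of replicate 1 minus replicate 2 correlated across genes at 0.224 between organoids and fresh cells. They correlated at 0.0175 between organoids and 12 h cultures and at 0.195 between 12 h cultures and fresh cells. A fit with the replicate block called 1422 genes (752 higher, 670 lower), 1179 of them among the 1301. Genes over 4-fold apart between the organoid libraries (517) numbered 1470 at a pseudocount of 0.1 RPKM and 170 at 5 RPKM, 395 at a mean of at least 5 RPKM, 576 after centring and 517 after quantile normalization. With 2 libraries a group, differences of genes near 1 RPKM and of genes that vary between the organoid libraries are the least certain.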
